A study of Mus musculus with 9 samples.

Results

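The effect of an active IKK2 kinase on gene expression was followed in 66cl4 cells, a mouse mammary carcinoma line that models triple-negative breast cancer, in which Eya3 had been knocked down. The comparison took the 3 libraries of knockdown cells with IKK2-SE against the 3 libraries of knockdown cells with an empty vector, 6 of the 9 libraries in the series, and it was read over all genes with enough counts. Libraries were assigned to these arms by their labels and not by any measured value. Both arms carried the same short hairpin RNA against Eya3, an Eyes absent protein that acts as a transcriptional coactivator and a phosphatase, were held in 2.5 ug/ml puromycin, and were selected for mCherry. They differed in the vector: empty in one arm, IKK2-SE in the other. The other 3 libraries came from cells with a scramble hairpin and the empty vector and were used to estimate the spread. All libraries were made from messenger RNA of cultured cells, with 3 replicates in each group. Separate transductions are not stated for the replicates, and p-values therefore reflect only how far these cultures differed. No group paired the scramble hairpin with IKK2-SE, and 1 hairpin was used in this comparison. An effect of active IKK2 that needs low Eya3 therefore cannot be told apart from one that does not.

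IKK2, encoded by Ikbkb, is the kinase that switches on the canonical NF-kB pathway. In resting cells NF-kB dimers such as p50 (Nfkb1) with p65 (Rela) are held in the cytoplasm by IkB proteins. IKK2 phosphorylates the IkB proteins, which are then degraded, and the dimers enter the nucleus and bind short DNA elements called kB sites. Targets include chemokines, cytokines, acute-phase proteins and the pathway's own inhibitors, which close a feedback loop. IKK2-SE is a constitutively active form in which serines of the activation loop are replaced by glutamate.

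The 6 libraries held 69381510 to 81534534 counts. Levels are given as CPM, counts as a share of the library after scaling between libraries, which compare a gene between libraries but not genes of different length with each other. Of 52208 genes in the table, 16766 had enough counts to be tested. The first principal component of the 6 libraries (41.6% of the variance) parted the arms, and the second (19.1%) parted IKK2-SE replicate 2 from IKK2-SE replicate 3. The mammary keratin Krt8 stood at 1029 to 1387 CPM and the mesenchymal markers Vim and Fn1 at 1787 CPM or above. The epithelial markers Krt18 and Krt19 were at or below 0.262 CPM in every library of the 2 arms, and Epcam and Cdh1 were too low for a test. The cells thus had a mixed keratin and mesenchymal profile that lacked the usual epithelial adhesion genes.

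Eya3 (chromosome 4, 132638987 to 132724765, plus strand, GRCm38/mm10) stood at 25.3, 25.3 and 24.3 CPM in the empty-vector arm and at 29.0, 26.1 and 24.7 CPM in the IKK2-SE arm. The arms overlapped, and Eya3 differed by 0.09 ± 0.06 on the log2 scale (adjusted p = 0.406 in edgeR). The gene of the kinase itself, Ikbkb (chromosome 8, 22659212 to 22706589, minus strand), stood at 43.8, 44.6 and 44.5 CPM and at 47.1, 49.2 and 49.4 CPM. Each IKK2-SE library lay above each empty-vector library, but at 0.13 ± 0.05 the difference missed the threshold in edgeR (adjusted p = 0.0809). The sources used here do not give the coding sequence of IKK2-SE, so whether its reads fall on mouse Ikbkb was not tested.

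With active IKK2, 1749 of the 16766 tested genes (10.4%) passed edgeR's quasi-likelihood test at a Benjamini-Hochberg adjusted p under 0.05. Of these, 941 rose (5.61% of all tested genes) and 808 fell (4.82%), so that 53.8% of the calls were rises. With library totals in place of the scaling factors 65.9% of the calls were rises. The share was 50.8% with no filter on low counts and 48.7% with a block for the replicate number. In bulk libraries such as these, fewer cells of a type and less RNA per cell cannot be told apart. Rises of at least 2-fold numbered 230 (1.37%) and such falls 49 (0.292%). The libraries of the 2 arms did not overlap for 4144 tested genes (24.7%), 2144 of them higher (12.8%) and 2000 lower (11.9%). Most changes were small: the median rise was 0.44 and the median fall 0.25 on the log2 scale, and 61.2% of the rises and 87.7% of the falls were under 1.5-fold. Rises of at least 4-fold numbered 108 and of at least 16-fold 36, while falls of these sizes numbered 19 and 5. These counts use fitted values, which are no measure of size for genes with very few counts in 1 arm. With the tested genes split by level into 5 equal groups, 78 rose and 26 fell in the lowest, and 77 and 25 of these reached 2-fold. In the second lowest, up to 4.26 CPM, 109 rises and 21 falls reached 2-fold. In the highest, from 70.2 CPM up, 161 rose and 367 fell, and 6 and 0 of these reached 2-fold. Among all tested genes, 514 passed the filter only through the IKK2-SE libraries, and 43 of these rose. In the lowest group 28 of the 78 rises had passed only in this way, and 8 of the 26 falls only through the empty-vector libraries, which leaves 50 and 18. Summed over genes, the rises added 12516 CPM and the summed level of the falls dropped by 20870 CPM. Both sums rest on the scaling, whose factors were 0.982 to 0.984 with the empty vector and 0.992 to 1.009 with IKK2-SE. With library totals 1160 genes rose and 599 fell, and the sums and the split by level were not repeated on that scale. By chromosome, the median log2 change ran from -0.036 to 0.018. The calls were split unevenly on some, with 31 rises and 10 falls on chromosome 16 and 16 rises and 39 falls on the X chromosome. Differences between chromosomes were not tested. The count of falls rested in part on single libraries, and was 492 without empty-vector replicate 2 and 505 without IKK2-SE replicate 3.

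**Figure D1:**
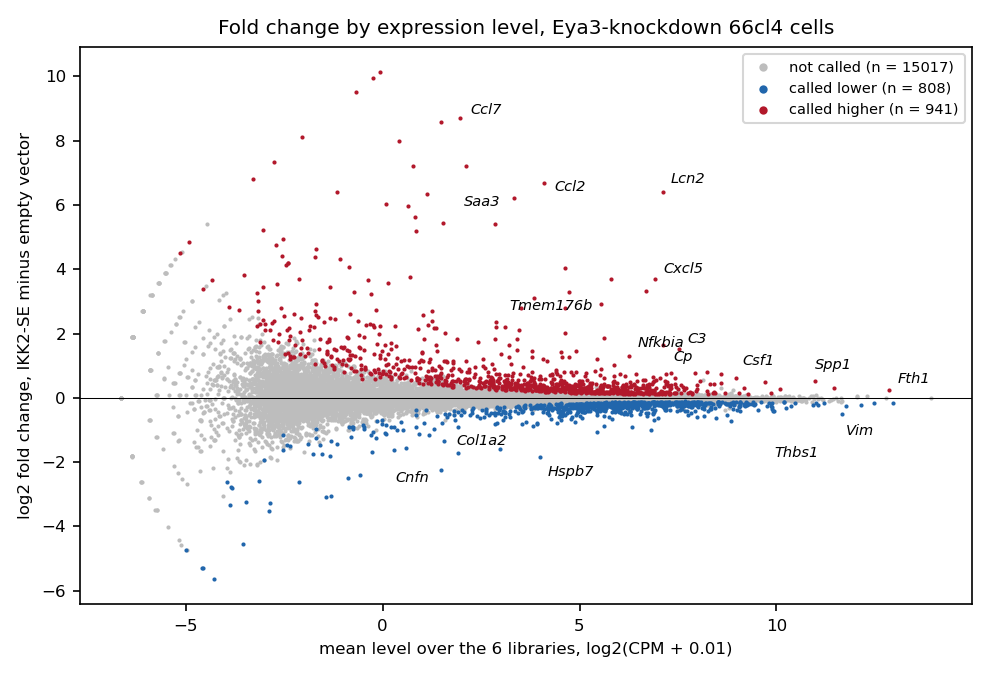
Log2 fold change (IKK2-SE minus empty vector) of the 16766 tested genes against the mean level over the 6 libraries, as log2(CPM + 0.01); red points rose, blue points fell and grey points did not pass the test. The far end of the rises holds chemokines and acute-phase genes such as Ccl7, Ccl2 and Lcn2, and points with no or very few counts in one arm have fitted values that are no measure of size.

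**Figure D2:**
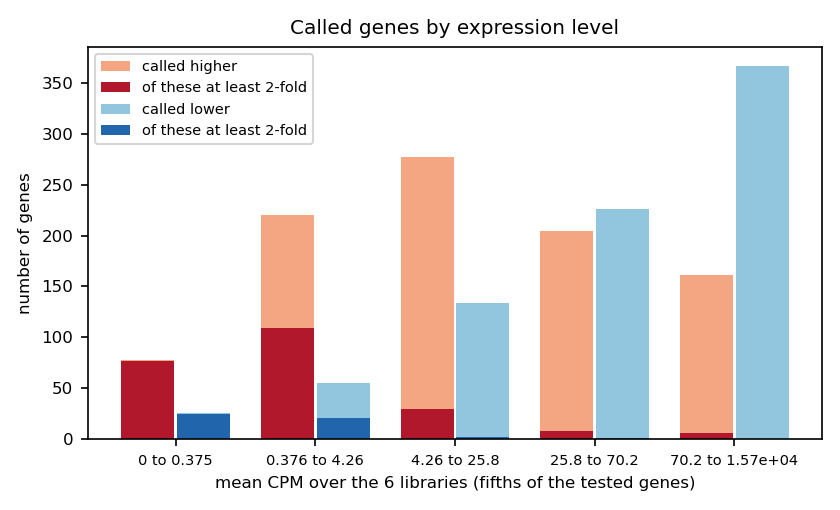
Number of genes that rose (red) or fell (blue) in each of 5 equal groups of the tested genes by mean CPM over the 6 libraries, with the dark part of each bar showing changes of at least 2-fold. Rises outnumber falls in the lower groups and falls outnumber rises, 367 to 161, in the highest.

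Within the pathway itself, several of the inhibitors that hold NF-kB back passed the test. Of 21 tested IkB proteins and feedback inhibitors 7 rose and none fell, with a median of 0.06 against 0.001 over all tested genes, and the count was 7 in every alternative analysis. At an unadjusted p under 0.05, 2 members were lower, and DESeq2 and limma voom called 0 lower. Nfkbia, which encodes the inhibitor IkB alpha, stood at 44.3, 44.2 and 44.3 CPM with the empty vector and at 111, 109 and 109.5 CPM with IKK2-SE. The replicates lay close together in each arm, and the rise was 1.31 ± 0.04 on the log2 scale, like all changes given with ± a standard error (edgeR adjusted p = 4.11e-13). Nfkbiz, an atypical nuclear IkB protein, went from 15.6, 15.3 and 17.0 CPM to 45.4, 43.5 and 43.3 CPM, a rise by 1.46 ± 0.06 (edgeR adjusted p = 1.42e-10). Zc3h12a, a nuclease that degrades cytokine messenger RNAs, rose by 1.20 ± 0.06, the IkB-like coactivator Bcl3 by 1.12 ± 0.11 and Tnip1, a partner of the A20 protein, by 0.37 ± 0.05. The other risers were the IkB genes Nfkbid and Nfkbie. Tnfaip3, which encodes A20, did not pass the test: it was at 50.5, 45.9 and 45.1 CPM with the empty vector and at 45.9, 46.7 and 40.9 CPM with IKK2-SE, and the arms overlapped (edgeR adjusted p = 0.443).

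Of 16 tested NF-kB subunits and IKK kinases 5 rose and none fell, with a median of 0.09. Nfkb1 went from 98.7, 99.0 and 97.6 CPM to 146, 141 and 150.3 CPM with no overlap, a rise by 0.56 ± 0.04 (edgeR adjusted p = 3.03e-08). Relb, a subunit of the noncanonical branch, rose by 0.27 ± 0.06 (edgeR adjusted p = 0.00624), and Ikbke, an IKK-related kinase, by 0.45 ± 0.08. Rela differed by -0.04 ± 0.04 (edgeR adjusted p = 0.615). Nfkb2, the precursor of p52, differed by 0.08 ± 0.04 (edgeR adjusted p = 0.265). The remaining 2 of the 5 were the kinases Tbk1 and Map3k8, whose calls were the least stable, and 3 members rose without scramble replicate 2, empty-vector replicate 1 or 3, or IKK2-SE replicate 2.

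Promoter sequences are shown for pathway and chemokine genes that hold a kB match, with the matched bases in capitals. A match was to the kB consensus on either strand within 250 bases before and 50 after a start site, in RefSeq sequences of GRCm38.p6, printed 5′ to 3′ on the gene's own strand. Of the 75 genes named by rank or as fixed, 49 had an entry in that table. Where a gene had several windows, the first with a match is shown. The windows stop short of the start sites, and the first 3 are from genes that rose, the next 2 from genes that did not pass the test.
Nfkbia, chr12:55492648-55492747, minus strand, match 29 bases before the start: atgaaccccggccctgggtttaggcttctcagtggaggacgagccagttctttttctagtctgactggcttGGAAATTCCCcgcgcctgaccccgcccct
Csf1, chr3:107760569-107760668, minus strand, match 154 bases before the start: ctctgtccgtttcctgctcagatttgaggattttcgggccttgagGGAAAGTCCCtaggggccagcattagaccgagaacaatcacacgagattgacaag
Cxcl1, chr5:90891130-90891229, plus strand, overlapping matches about 70 bases before the start: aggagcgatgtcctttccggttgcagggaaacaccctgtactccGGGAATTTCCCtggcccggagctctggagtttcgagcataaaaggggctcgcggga
Nfkb2, chr19:46304637-46304736, plus strand, one pair of overlapping matches and a further match next to the start: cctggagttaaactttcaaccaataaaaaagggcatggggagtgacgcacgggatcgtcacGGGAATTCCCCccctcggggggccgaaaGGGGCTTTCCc
Tnfaip3, chr10:19015411-19015510, minus strand, match 12 bases before the start: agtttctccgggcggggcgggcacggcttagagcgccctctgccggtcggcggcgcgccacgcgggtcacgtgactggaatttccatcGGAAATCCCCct
Of 6 risers of the feedback list with an entry, 5 held a kB match (Bcl3, Nfkbia, Nfkbid, Nfkbie and Tnip1), and so did 3 of the 11 members that were not called (Cyld, Tax1bp1 and Tnfaip3). A match in these letters was thus present in genes that rose and in genes that did not pass the test.

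Over the whole table, 5.14% of 27025 genes held the kB consensus in at least 1 promoter window. All shares are of genes, so a gene with several windows had more chances of a match. The share was 10.6% in genes that rose (75 of 705 with an entry; 95% exact binomial interval 8.46 to 13.15), 6.62% in genes that fell (41 of 619; 4.79 to 8.88) and 5.93% in tested genes not called (559 of 9427; 5.46 to 6.43). Among rises of at least 2-fold it was 14.1% (22 of 156; 9.05 to 20.57). Every consensus match also fulfils a looser pattern of 3 G, any 5 bases and 2 C. This pattern was in 70.9%, 75.6% and 69.7% of risers, fallers and uncalled genes. It was in 53.5% of all genes with an entry. These shares are descriptions of letters in short windows. Vim, which fell, also holds a consensus match, 223 bases before its start (chr2:13574061-13574142, plus strand).
Vim: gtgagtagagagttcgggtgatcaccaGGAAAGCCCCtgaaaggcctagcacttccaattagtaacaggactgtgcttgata

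Chemokines were among the largest rises. Of 9 tested CXC and CX3C chemokines 8 rose, with a median of 1.28, and of 8 tested CC chemokines 5 rose and none fell, with a median of 4.02. Another 19 of the 36 listed chemokine genes had too few counts for a test. Ccl2 (chromosome 11, 82035571 to 82037453, plus strand), which attracts monocytes, was at 0.312, 0.433 and 0.239 CPM with the empty vector and at 34.9, 30.2 and 37.0 CPM with IKK2-SE. All 3 IKK2-SE libraries lay far above the empty-vector libraries, with a rise by 6.68 ± 0.23 (edgeR adjusted p = 2.69e-08). Its neighbour on chromosome 11, Ccl7, had 1, 3 and 0 counts in the empty-vector libraries and 612, 474 and 594 in the IKK2-SE libraries, a ratio of 453 (95% interval 177 to 1670, counting error only). Ccl20, the ligand of CCR6, went from 0.112, 0.140 and 0.133 CPM to 5.45, 5.34 and 6.07 CPM, a rise by 5.43 ± 0.26 (edgeR adjusted p = 5.89e-10). Ccl5, which attracts T cells, went from 2.91, 2.25 and 3.46 CPM to 22.9, 17.9 and 19.4 CPM, a rise by 2.81 ± 0.13 (edgeR adjusted p = 7.13e-10). The arms did not overlap for any of these 4 genes. Ccl17 had 1 count against 48 (ratio 51.8, 8.87 to 2090) and was tested only because of its IKK2-SE libraries.

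The neutrophil-attracting genes Cxcl3, Cxcl5 and Cxcl1, which lie in one cluster on chromosome 5, all rose. Cxcl5 (chromosome 5, 90759360 to 90761624, plus strand) stood at 17.4, 16.1 and 18.6 CPM and at 228, 209 and 232 CPM, a rise by 3.68 ± 0.08 (edgeR adjusted p = 6.15e-13). Cxcl3 (chromosome 5, 90786103 to 90789600, plus strand) stood at 7.74, 7.47 and 8.75 CPM and at 108, 94.7 and 106 CPM, a rise by 3.69 ± 0.07 (edgeR adjusted p = 5.61e-15). Cxcl1 (chromosome 5, 90891241 to 90893115, plus strand) stood at 18.6, 18.4 and 20.1 CPM and at 196, 178 and 192 CPM, a rise by 3.31 ± 0.07 (edgeR adjusted p = 9.09e-15). For all 3 genes the lowest IKK2-SE library was above the highest empty-vector library by more than the range within either arm. The interferon-inducible Cxcl10 rose by 0.73 ± 0.13 and the membrane-bound Cx3cl1 by 0.39 ± 0.07. Cxcl12, the stromal ligand of CXCR4, was the only CXC gene that fell, by 0.19 (edgeR adjusted p = 0.00319), and was named after its value was seen. Cxcl2, Cxcl11 and Ppbp rose from low levels, and 5 CXC genes rose without IKK2-SE replicate 3 or with a stricter filter on CPM. Of 8 rising chemokines with a promoter entry, 5 held a kB match: Ccl20, Cxcl1, Cxcl2, Cxcl3 and Cxcl10. The matches of Cxcl3 and Ccl20 are printed for comparison with that of Cxcl1 above.
Cxcl3, chr5:90785984-90786083, plus strand, overlapping matches about 72 bases before the start: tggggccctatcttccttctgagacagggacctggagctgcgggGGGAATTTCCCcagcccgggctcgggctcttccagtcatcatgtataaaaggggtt
Ccl20, chr1:83116641-83116740, plus strand, match 80 bases before the start: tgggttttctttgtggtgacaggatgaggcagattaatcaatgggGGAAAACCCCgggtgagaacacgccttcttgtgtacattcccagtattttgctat

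Among 22 tested colony-stimulating and growth factors 6 rose and 3 fell, with a median of 0.01, and 5 fell without empty-vector replicate 1. Csf3 encodes G-CSF, which drives the production of neutrophils. It had 7, 5 and 0 counts with the empty vector and 391, 273 and 270 with IKK2-SE, a ratio of 84.0 (47.9 to 163). Csf2 (GM-CSF) had 6 counts in all against 123, a ratio of 22.1 (9.88 to 61.5), and passed the filter only through its IKK2-SE libraries. Csf1, the macrophage factor, was abundant in both arms, at 401, 385 and 413 CPM and at 613, 613 and 614 CPM. It rose by 0.62 ± 0.04 (edgeR adjusted p = 1.06e-08) with no overlap. The lymphatic factor Vegfc rose by 2.30 ± 0.23 and Fgf7, a growth factor for epithelium, by 1.09 ± 0.14. The angiogenic factor Vegfa went the other way, from 248, 236 and 223 CPM to 178, 188 and 162 CPM, a fall by 0.42 ± 0.05 (edgeR adjusted p = 5.41e-05), as did the related factor Pgf.

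Of 18 tested interleukins and related cytokines 6 rose and none fell, with a median of 0.17. Il1a, the membrane-associated interleukin-1, had 4, 2 and 7 counts against 763, 491 and 606, a ratio of 154 (90.1 to 291), and was tested because of its IKK2-SE libraries. Lif, a cytokine of the interleukin-6 family, went from 27.6, 24.7 and 26.8 CPM to 45.1, 44.1 and 45.3 CPM, a rise by 0.77 ± 0.05 (edgeR adjusted p = 1.74e-08). Ebi3, a subunit of the heterodimeric interleukins 27 and 35, rose by 1.52 ± 0.23, Il16 by 1.55 ± 0.34 and Il15, which sustains natural killer cells, by 1.01 ± 0.18. Il6 itself had 1 count against 22 (ratio 23.7, 3.84 to 980) and was too low for a test. This NF-kB target, named here after its counts were seen, was thus near the detection limit in both arms.

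Secreted acute-phase and antimicrobial proteins rose in most tested members. Of 12 tested, 10 rose and none fell, with a median of 3.85. Hp, S100a8 and Ptx3 entered the test only through the IKK2-SE libraries. Lcn2 (chromosome 2, 32384633 to 32388252, minus strand), a lipocalin that withholds iron from bacteria, stood at 3.16, 2.54 and 3.96 CPM and at 309, 249 and 261 CPM. The arms lay far apart, and the rise was 6.41 ± 0.13 (edgeR adjusted p = 3.55e-10). Saa3, a serum amyloid A protein, went from 0.275, 0.242 and 0.279 CPM to 21.6, 15.9 and 22.5 CPM, a rise by 6.23 ± 0.18 (edgeR adjusted p = 1.24e-12). Slpi, an inhibitor of neutrophil proteases, went from 2.79, 2.75 and 2.96 CPM to 56.4, 39.2 and 43.7 CPM, a rise by 4.04 ± 0.12 (edgeR adjusted p = 9.2e-11). Haptoglobin (Hp) and the pentraxin Ptx3 had no counts in any empty-vector library and 408 and 264 in all with IKK2-SE, at least 147-fold and 95-fold higher if 3 counts are set as the floor of the empty-vector group. The chitinase-like Chil1 had 16 counts against 746 (ratio 50.3, 30.8 to 88.5). Spp1, which encodes osteopontin, was already abundant and went from 1709, 1558 and 1741 CPM to 2493, 2254 and 2423 CPM, a rise by 0.52 ± 0.05.

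Of 12 tested complement genes 5 rose and none fell, with a median of 0.39. C3, the central component, went from 103, 93.2 and 90.9 CPM to 286, 279.9 and 249.7 CPM, with no overlap and a rise by 1.51 ± 0.06 (edgeR adjusted p = 9.58e-11). C4b rose by 2.00 ± 0.30, and the proteases of the classical pathway C1s1, C1s2 and C1ra rose by 0.67 ± 0.04, 0.60 ± 0.10 and 0.39 ± 0.04. Genes of iron handling rose with Lcn2, 7 of 17 tested. The 1 fall in that list, Slc39a14, was not called when any 1 library other than IKK2-SE replicate 3 was left out. Ceruloplasmin (Cp), a copper oxidase that loads iron onto transferrin, went from 68.2, 65.6 and 69.0 CPM to 216, 213 and 208 CPM, a rise by 1.65 ± 0.04 (edgeR adjusted p = 8.85e-14). The ferritin heavy chain Fth1 gained more CPM than any other gene that passed the test. It went from 6607, 6928 and 6861 CPM to 8150, 8153 and 8112 CPM, a rise by only 0.26 ± 0.03 (edgeR adjusted p = 5.39e-05). The iron importer Slc11a2 rose by 0.59 ± 0.06 and the transferrin receptor Tfrc by 0.33 ± 0.04.

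**Figure D3:**
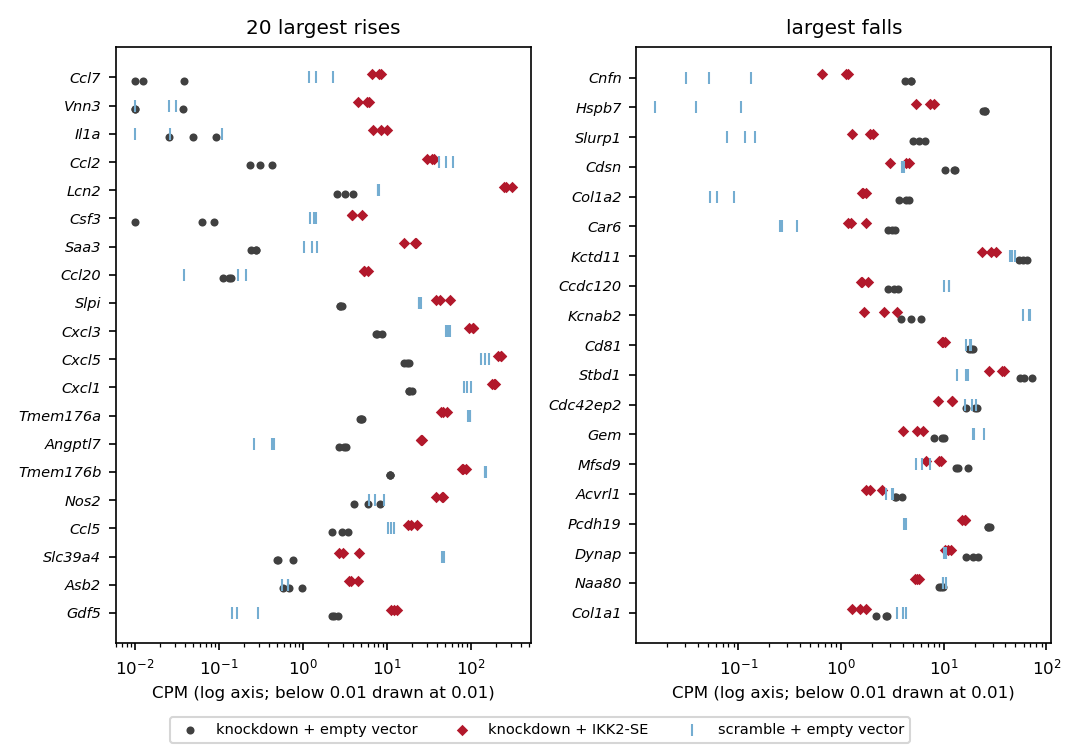
CPM in single libraries (log axis, values below 0.01 drawn at 0.01) of the 20 genes with the largest rises and of 19 of the 20 with the largest falls, with empty vector in dark grey, IKK2-SE in red and scramble cells as blue ticks. For every gene shown the 3 red points are apart from the 3 dark points, which the choice of these genes required.

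Some receptors and sensors of inflammation also passed the test. Of 23 tested interleukin and interferon receptors 13 rose and none fell, with a median of 0.47, and Csf1r, Csf2rb and the riser Il13ra2 were tested only through the IKK2-SE libraries. Il1rl1, the receptor of interleukin-33, went from 37.0, 36.5 and 42.0 CPM to 78.7, 76.5 and 80.6 CPM, a rise by 1.03 ± 0.07 (edgeR adjusted p = 7.13e-08). The oncostatin M receptor Osmr rose by 1.04 ± 0.10, the interferon receptor chains Ifngr1 and Ifnar2 by 0.53 ± 0.05 and 0.47 ± 0.05, and the shared chain Il6st by 0.28 ± 0.04. Of 25 tested pattern receptors and adaptors 10 rose, with a median of 0.14. Casp1 and Casp4, the inflammasome caspases, rose by 2.27 ± 0.26 and 0.98 ± 0.10, Tlr2, a receptor for bacterial lipoproteins, by 1.05 ± 0.10 and its co-receptor Cd14 by 0.67 ± 0.07. The list also held 3 falls (Tlr1, Tlr6 and Mavs), but 1 member fell without scramble replicate 2, empty-vector replicate 2 or IKK2-SE replicate 1, and 0 without empty-vector replicate 1 or IKK2-SE replicate 2.

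Of 29 tested TNF receptors, TRAF adaptors and inhibitors of apoptosis 7 rose, with a median of 0.1, and the riser Tnfsf13b was tested only through the IKK2-SE libraries. The death receptor Fas went from 2.42, 2.54 and 2.86 CPM to 12.3, 10.5 and 13.1 CPM, a rise by 2.20 ± 0.14 (edgeR adjusted p = 2.48e-08). Traf1, an adaptor that NF-kB induces, rose by 0.93 ± 0.10, Traf5 by 0.63 ± 0.13 and the TNF receptor Tnfrsf1b by 0.50 ± 0.07. Of 14 tested BCL2 family genes 3 rose and 2 fell, with a median of 0.02, and 0 to 2 fell over the alternative analyses. Among the risers, the anti-apoptotic Bcl2l1 rose by 0.30 ± 0.05 and the pro-apoptotic Bmf by 1.59 ± 0.35, from 0.245 CPM. Of 25 tested JAK, STAT and SOCS genes 6 rose, with a median of 0.03, and 3 rose without IKK2-SE replicate 1. Jak2 rose by 0.47 ± 0.05 and Stat3, which transmits the interleukin-6 family signal, by 0.32 ± 0.04 (edgeR adjusted p = 0.0001). The TNF receptor list and the JAK, STAT and SOCS list had 1 fall each, Traf6 and Stat6. Traf6 was not called without scramble replicate 1 or 2, empty-vector replicate 1 or 2, or IKK2-SE replicate 1 or 3. Stat6 was not called without empty-vector replicate 1 or 2 or IKK2-SE replicate 3.

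Interferon-stimulated genes formed the most populous group of risers. Of 55 tested 34 rose and 1 fell, with a median of 0.33. Zbp1, a sensor of Z-form nucleic acids, went from 1.30, 1.17 and 1.22 CPM to 4.45, 3.48 and 3.74 CPM, a rise by 1.66 ± 0.16 (edgeR adjusted p = 2.72e-06). Parp14 rose by 0.79 ± 0.08, the antiviral Ifit3 by 0.95 ± 0.13 and the RNA sensor Ifih1 by 0.45 ± 0.06. The exception was Isg20, an exonuclease, which fell from 84.9, 86.1 and 87.1 CPM to 62.2, 65.4 and 55.7 CPM, by 0.49 ± 0.05 (edgeR adjusted p = 8.55e-06). The group was highest in IKK2-SE replicate 1 and lowest in IKK2-SE replicate 2, by medians of 0.13 above and 0.12 below the arm's mean on the log2 scale over 46 members. Between 24 (without empty-vector replicate 2) and 42 members rose over the alternative analyses.

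Of 17 tested guanylate-binding proteins and immunity GTPases, which attack the compartments of intracellular microbes, 16 rose and none fell, with a median of 1.13, and 1 of the risers (Gbp11) was tested only through the IKK2-SE libraries. Gbp2 went from 16.8, 14.6 and 15.3 CPM to 43.0, 35.1 and 35.7 CPM, a rise by 1.28 ± 0.08 (edgeR adjusted p = 1.58e-08). Gbp7 rose by 1.21 ± 0.10, Irgm2 by 0.70 ± 0.08 and Gbp4 by 0.53 ± 0.06. Gbp5 had 14 counts against 223 (ratio 17.2, 10.0 to 32.0). These genes are near-identical copies in part, so reads may have been split between members. Only Gbp8 did not pass the test, and 11 rose with a stricter filter on CPM. Of 23 tested genes of MHC class I and the immunoproteasome 11 rose and none fell, with a median of 0.15, and 7 rose without empty-vector replicate 3 or IKK2-SE replicate 1. The peptide transporter Tap2 rose by 0.55 ± 0.06, the loading chaperone Tapbp by 0.44 ± 0.04, the trimming peptidase Erap1 by 0.40 ± 0.05 and the proteasome subunit Psmb10 by 0.47 ± 0.08. Psmb8, another immunoproteasome subunit, had 6, 10 and 2 counts with the empty vector and 0, 4 and 1 with IKK2-SE, and was named after these were seen. In the lists of chemokines, interleukins, interleukin and interferon receptors, complement, acute-phase proteins and GTPases, edgeR gave no member other than Cxcl12 as lower even at an unadjusted p under 0.05, and DESeq2 and limma voom called no other.

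An interferon response element (the letters GAAANNGAAA on either strand) was searched for after the data had been seen. At least 1 promoter window held it in 8.51% of the genes that rose (60 of 705, 6.56 to 10.82). The share was 3.55% of those that fell (22 of 619, 2.24 to 5.33) and 3.99% of all genes with an entry. Of 36 risers of the interferon and GTPase lists with an entry 20 held it, as did 8 of 16 members that were not called higher. Neither group of these lists was thus without the element. The kB consensus was in 3 of the 36 risers (Bst2, Gbp5 and Irf1) and in 3 of the 16 members not called higher (Epsti1, Irf2 and Oasl1).

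**Figure D4:**
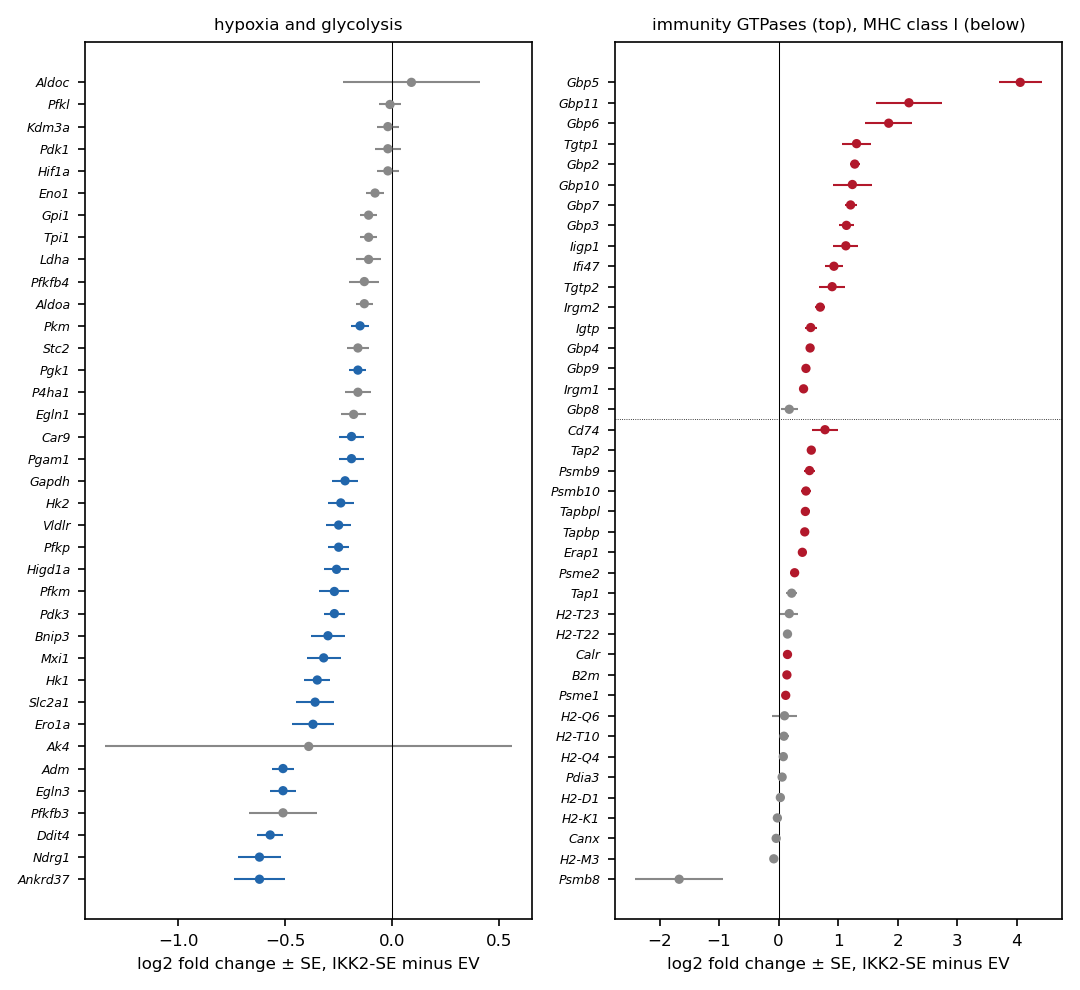
Log2 fold change ± SE (IKK2-SE minus empty vector) of every tested member of 3 lists: hypoxia and glycolysis on the left, immunity GTPases and MHC class I with the immunoproteasome on the right. Red members rose, blue fell and grey did not pass the test; 16 of 17 GTPases and 11 of 23 MHC class I members rose, and 21 of 37 hypoxia and glycolysis members fell.

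Genes of other kinds were also among the 20 largest rises. Tmem176a and Tmem176b encode related membrane proteins from divergent neighbouring genes on chromosome 6. Tmem176b (chromosome 6, 48833818 to 48841496, minus strand) stood at 11, 11.03 and 10.93 CPM and at 87.4, 81.6 and 79.4 CPM, a rise by 2.91 ± 0.05 and the smallest adjusted p of all genes (edgeR adjusted p = 8.13e-16). Tmem176a (chromosome 6, 48840919 to 48847071, plus strand) stood at 4.78, 4.92 and 5.05 CPM and at 53.1, 46.8 and 44.7 CPM, a rise by 3.29 ± 0.07 (edgeR adjusted p = 9.09e-15). Of 2 RefSeq promoter windows of Tmem176a and 3 of Tmem176b, the first with a kB match was used for each gene. The starts of these windows face away from each other across 108 bases, chr6:48841375-48841482, which hold 1 kB match. The match lies 86 bases from this Tmem176a start and 32 from this Tmem176b start, and inside both gene spans given above. The stretch is shown on the plus strand, and whether the match acts on either gene was not tested.
Tmem176a-Tmem176b: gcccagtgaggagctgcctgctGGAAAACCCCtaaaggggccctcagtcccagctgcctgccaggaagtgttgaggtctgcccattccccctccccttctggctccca
Where the counting ignored strand, reads over their shared ends could not be told apart. Nos2, the inducible nitric oxide synthase, went from 8.43, 6.08 and 4.13 CPM to 47.2, 45.3 and 38.3 CPM, a rise by 2.81 ± 0.23 (edgeR adjusted p = 0.000107). Vnn3, of the vanin family of pantetheinases, had 3, 0 and 0 counts against 472, 326 and 413, a ratio of 436 (149 to 2120). It was tested, and so ranked, only through the IKK2-SE libraries. Angptl7, a secreted angiopoietin-like protein, went from 2.70, 3.07 and 3.26 CPM to 25.9, 26.1 and 25.7 CPM, a rise by 3.11 ± 0.09. The zinc importer Slc39a4 rose by 2.57 ± 0.23, the ubiquitin ligase subunit Asb2 by 2.40 ± 0.19 and Gdf5, of the bone morphogenetic protein family, by 2.36 ± 0.12. Outside the 20 largest rises, the transcription factor Cebpd went from 8.72, 9.49 and 11.2 CPM to 43.0, 35.8 and 40.7 CPM. It rose by 2.02 ± 0.09 (edgeR adjusted p = 1.56e-10).

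Of 26 tested enzymes of nitric oxide, prostaglandin and redox metabolism 7 rose and 1 fell (2 without scramble replicate 3), with a median of 0.07. Xdh (xanthine dehydrogenase) rose by 0.62 ± 0.04, the cystine transporter Slc7a11 by 0.55 ± 0.05, the prostaglandin E synthase Ptges by 0.53 ± 0.05 and the mitochondrial superoxide dismutase Sod2 by 0.40 ± 0.04. Odc1, the first enzyme of polyamine synthesis, was abundant and went from 703, 692 and 704 CPM to 1031, 957 and 958 CPM, a rise by 0.49 ± 0.04 (edgeR adjusted p = 2.83e-07). Adhesion molecules moved both ways, with 5 of 19 tested higher and 5 lower, or 3 lower without empty-vector replicate 2. The leukocyte ligand Vcam1 went from 3.44, 2.71 and 3.00 CPM to 14.8, 13.6 and 13.8 CPM, a rise by 2.21 ± 0.10 (edgeR adjusted p = 2.54e-10), and Icam1 rose by 3.58 ± 0.36 from 0.167 CPM. The tetraspanin Cd81 went from 18.4, 17.5 and 19.4 CPM to 9.72, 9.87 and 10.2 CPM, a fall by 0.89 ± 0.07 (edgeR adjusted p = 1.35e-07), and the hyaluronan receptor Cd44 fell by 0.20 ± 0.04. Among 29 tested proteases and inhibitors 6 rose and 4 fell, with a median of 0. The stromelysins Mmp3 and Mmp10 rose by 3.77 ± 0.29 and 1.64 ± 0.10, Adamts7 by 1.48 ± 0.08 and the gelatinase Mmp9 by 1.19 ± 0.13. Of 14 tested ligands of immune checkpoints and killer cells only Clec2d rose, by 2.37 ± 0.30, and 2 members did without empty-vector replicate 3 or IKK2-SE replicate 2. Cd274, which encodes PD-L1, stood at 5.50, 4.92 and 5.53 CPM and at 6.45, 5.09 and 6.17 CPM, and the arms overlapped (edgeR adjusted p = 0.442).

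The largest falls were of another kind than the rises, with no cytokine among the 20. Several belonged to the cornified layer of stratified epithelium. Cnfn, a component of the cornified envelope, went from 4.77, 4.84 and 4.19 CPM to 1.11, 1.16 and 0.657 CPM, a fall by 2.23 ± 0.20 (edgeR adjusted p = 1.46e-06). Cdsn, the adhesive protein of corneodesmosomes, went from 12.5, 12.8 and 10.4 CPM to 4.25, 4.59 and 2.97 CPM, a fall by 1.59 ± 0.13 (edgeR adjusted p = 3.47e-07). Slurp1, a secreted Ly6 protein of keratinocytes, went from 6.58, 5.06 and 5.80 CPM to 1.91, 2.06 and 1.27 CPM, a fall by 1.73 ± 0.17 (edgeR adjusted p = 2.72e-06). For each of these 3 genes IKK2-SE replicate 3 was the lowest library. This theme was noticed after the values had been seen, and no list of cornified genes was drawn up. The keratin Krt16 had 54 counts in all with the empty vector and 4 with IKK2-SE (ratio 0.08, 0.021 to 0.217).

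Hspb7, a small heat shock protein of muscle, went from 25.2, 23.9 and 25.2 CPM to 7.31, 8.04 and 5.33 CPM, a fall by 1.84 ± 0.12 (edgeR adjusted p = 3.82e-08). The arms did not overlap. Kctd11, an antagonist of Hedgehog signalling, fell by 1.08 ± 0.10, the secreted carbonic anhydrase Car6 by 1.16 ± 0.18 and Stbd1, which tethers glycogen, by 0.87 ± 0.15. Pcdh19, a protocadherin, went from 27.1, 26.9 and 28.2 CPM to 16.1, 15.1 and 16.2 CPM, a fall by 0.79 ± 0.06 (edgeR adjusted p = 8.65e-08). The actin acetyltransferase Naa80 fell by 0.79 ± 0.08, the Cdc42 effector Cdc42ep2 by 0.82 ± 0.13, the GTPase Gem by 0.82 ± 0.15 and the receptor Acvrl1 by 0.79 ± 0.14. As a median over the 20 largest falls, IKK2-SE replicate 2 lay 0.18 above and IKK2-SE replicate 3 lay 0.21 below the arm's mean on the log2 scale. Cav1, the main protein of caveolae, fell by 0.58 ± 0.04 with one of the smallest adjusted p among falls (edgeR adjusted p = 1.19e-07).

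Genes of hypoxia and glycolysis formed the list with the most falls. Of 37 tested 21 fell and none rose, with a median of -0.22. Ndrg1, a hypoxia marker, went from 462, 424 and 392 CPM to 287, 304 and 238 CPM, a fall by 0.62 ± 0.10 (edgeR adjusted p = 0.00234). Ddit4, an inhibitor of mTOR signalling, went from 124, 124 and 126 CPM to 85.4, 90.5 and 75.6 CPM, a fall by 0.57 ± 0.06 (edgeR adjusted p = 3.12e-06). The arms did not overlap for these 2 genes. The vasodilator Adm fell by 0.51 ± 0.05, Egln3, an oxygen sensor that marks HIF for degradation, by 0.51 ± 0.06 and the hexokinase Hk1 by 0.35 ± 0.07. Summed over the list the level was 31820 to 34210 CPM with the empty vector and 28300 to 30230 CPM with IKK2-SE. The count depended on single libraries: 10 fell without empty-vector replicate 1, 9 without empty-vector replicate 2 and 10 without IKK2-SE replicate 3. None rose in any alternative, DESeq2 and limma voom included, and 0 were higher at an unadjusted p under 0.05.

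Of 43 tested genes of the unfolded protein and integrated stress responses 15 fell and 3 rose, with a median of -0.07. Chac1, a glutathione-degrading target of Atf4, fell by 0.41 ± 0.05 (edgeR adjusted p = 2.25e-05), the stress sensor Sesn2 by 0.21 ± 0.04, and the amino acid genes Aldh18a1 and Slc7a5 by 0.20 ± 0.04 and 0.19 ± 0.04. Of 30 tested p53 targets 8 fell, or 5 without empty-vector replicate 3. They included the cell cycle inhibitor Cdkn1a, which went from 284, 264 and 254 CPM to 196, 204 and 172 CPM, a fall by 0.48 ± 0.06 (edgeR adjusted p = 2.76e-05). Ccng2, Gadd45b and Gadd45g fell by 0.42 ± 0.05, 0.38 ± 0.05 and 0.75 ± 0.08. Fas, which is also a TNF receptor family member, was the only p53 target that rose, and 2 targets rose without empty-vector replicate 3 or IKK2-SE replicate 1.

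Growth factor signalling genes fell in part. Of 19 tested EGFR ligands and MAPK feedback genes 7 fell and 2 rose, with a median of -0.12. The ligand Areg went from 52.3, 50.3 and 50.5 CPM to 33.0, 38.8 and 35.1 CPM, a fall by 0.52 ± 0.06 (edgeR adjusted p = 1.27e-05). Hbegf fell by 0.38 ± 0.05 and the feedback inhibitor Spry2 by 0.34 ± 0.05, while the ligand Nrg1 and the ERK phosphatase Dusp6 rose by 0.38 ± 0.04 and 0.36 ± 0.04. Of 25 tested AP-1 and immediate-early factors 8 fell and 4 rose, with a median of 0.02. Jun, a core AP-1 subunit, went from 167, 159.7 and 164 CPM to 127, 132 and 121 CPM, a fall by 0.37 ± 0.04 (edgeR adjusted p = 9.88e-06). Jund and Fosl2 fell by 0.36 ± 0.05 and 0.34 ± 0.05, and Fosl1 rose by 0.32 ± 0.05. Myc fell by 0.19 ± 0.04 (edgeR adjusted p = 0.00494).

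Matrix and cytoskeletal genes moved both ways. Of 30 tested collagens and their modifying enzymes 7 fell and 3 rose, with a median of -0.02. The chains of type I collagen fell together: Col1a2 went from 4.26, 3.67 and 4.60 CPM to 1.60, 1.74 and 1.64 CPM, a fall by 1.33 ± 0.14 (edgeR adjusted p = 7.18e-06), and Col1a1 fell by 0.77 ± 0.15. Col8a1 rose by 0.44 ± 0.04 and Col15a1 by 1.34 ± 0.19. Of 34 tested matrix glycoproteins 8 rose and 6 fell, with 5 rising without empty-vector replicate 2 or IKK2-SE replicate 1. The risers Dcn and Nid1 were tested only through the IKK2-SE libraries. Ltbp2, a latent TGF-beta binding protein, went from 23.4, 19.5 and 20.8 CPM to 81.8, 76.3 and 73.6 CPM, a rise by 1.86 ± 0.06 (edgeR adjusted p = 6.77e-12). Thbs1 (thrombospondin) went from 1096, 1144 and 1128 CPM to 810.1, 849 and 864 CPM, a fall by 0.42 ± 0.04 (edgeR adjusted p = 1.15e-06), and Fbln2 fell by 0.72 ± 0.07. Of 33 tested TGF-beta, YAP and TEAD targets 8 rose and 8 fell, or 5 fell without empty-vector replicate 1 or IKK2-SE replicate 1. The receptors split, with Tgfbr1 and Tgfbr3 higher by 0.46 ± 0.06 and 0.75 ± 0.05 and Tgfbr2 lower by 0.33 ± 0.04.

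Vimentin (Vim), the main intermediate filament of mesenchymal cells, lost more CPM than any other gene that passed the test. It stood at 4047, 3744 and 3640 CPM with the empty vector and at 2787, 2735 and 2561 CPM with IKK2-SE, with no overlap and a fall by 0.50 ± 0.06 (edgeR adjusted p = 2.23e-05). Of 19 tested mesenchymal genes 4 fell and 3 rose, with a median of -0.04, and 1 of the risers (Acta2) was tested only through the IKK2-SE libraries. Tpm2 and Cdh2 (N-cadherin) fell by 0.50 ± 0.06 and 0.22 ± 0.04, and Twist2 and Pdgfrb rose by 0.70 ± 0.06 and 0.60 ± 0.10. Of 20 tested epithelial genes 3 rose and 4 fell, with a median of -0.28, and the riser Ehf was likewise tested only through the IKK2-SE libraries. The basal factor Trp63 rose by 0.48 ± 0.09, and Krt8 and the transcription factor Klf5 fell by 0.31 ± 0.05 and 0.40 ± 0.07.

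Oxidative phosphorylation and the cytoplasmic ribosomal proteins had few calls. Of 37 tested genes of oxidative phosphorylation edgeR called 0, 1 fell without IKK2-SE replicate 1, and DESeq2 called 1 and limma voom 0. At an unadjusted p under 0.05, 2 of them were lower and 0 higher. Among 53 cytoplasmic ribosomal proteins Rps2 was the only call, and it was lost without empty-vector replicate 1 or 2 or IKK2-SE replicate 2 or 3, which left 0. Of 48 tested cell cycle genes 2 rose and 4 fell: Cdk6 and Cdkn2c rose by 0.24 ± 0.04 and 0.22 ± 0.04, Ccnd1 and Ccnd2 (cyclins D1 and D2) fell by 0.16 ± 0.03 and 0.17 ± 0.04, and the other two were Cdkn1a and Cdc20. Of 36 tested genes of cholesterol and fatty acid synthesis 2 rose and 3 fell, among the latter Sqle by 0.25 ± 0.04 and the desaturase Scd2 by 0.24 ± 0.04. Over all tested genes 5.61% rose and 4.82% fell, and the calls in the cell cycle and lipid synthesis lists were of that order. Of 26 tested lysosomal genes 4 rose and none fell, and 2 rose without IKK2-SE replicate 1. The cathepsin Ctsl went from 2420, 2575 and 2617 CPM to 3095, 3137 and 3207 CPM, a rise by 0.31 ± 0.04 (edgeR adjusted p = 9.35e-05).

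**Figure D5:**
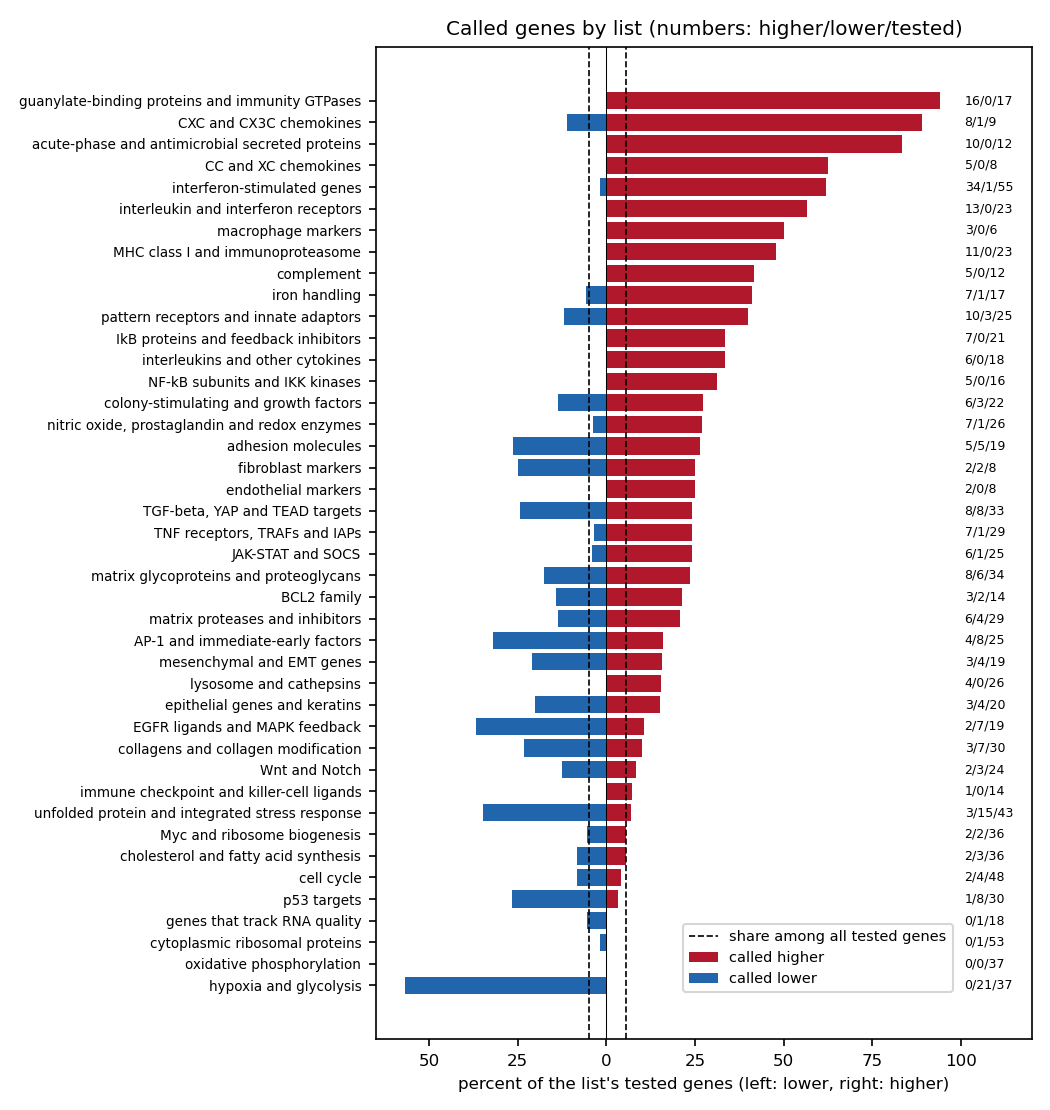
Percent of each list's tested genes that rose (red, right) or fell (blue, left), with the numbers higher, lower and tested at the right edge and dashed lines at the shares among all tested genes, 5.61% higher and 4.82% lower. Immunity GTPases, chemokines and acute-phase proteins stand at the top, and hypoxia and glycolysis genes have the longest bar to the left.

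Markers of other cell types were read beside these groups. Of 16 macrophage markers 6 were tested and 3 rose (Mrc1, Cd14 and Lyz2), or 2 without empty-vector replicate 2 or IKK2-SE replicate 1. The summed level was 27.5 to 31.3 CPM with the empty vector and 39.3 to 41.8 CPM with IKK2-SE. C1qa, C1qc and Tyrobp had no counts, and the means of Ptprc, Adgre1 and Cd163 were at or below 0.0571 CPM in both arms. Of 12 neutrophil markers only S100a8 was tested, through the IKK2-SE libraries alone. It rose from 9, 10 and 7 counts to 133, 86 and 90, while S100a9, Mpo and Retnlg had no counts in the 6 libraries. The sum over neutrophil markers was 0.140 to 0.186 CPM and 1.33 to 1.90 CPM. Of 12 lymphocyte markers 2 were tested and neither was called, with sums from 0.356 to 0.50 CPM. Of 12 endothelial markers 8 were tested and Tie1 and Cdh5 rose, to 0.508 and 0.634 CPM, while the means of Pecam1, Kdr and Cldn5 were at or below 0.108 CPM. Of 12 fibroblast markers 8 were tested, with 2 higher (Dcn and Pdgfrb) and 2 lower (Col1a1 and Col1a2), and Thy1 had no counts. Dcn passed the filter only through the IKK2-SE libraries. Of 18 tested genes that track RNA quality 1 fell (Neat1) and none rose, and 1 rose without IKK2-SE replicate 1. The share of mitochondrial transcripts was 0.939 to 1.429% over the 6 libraries, and the ranges of the arms overlapped. The part of the cell type markers in the other results was not tested.

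The level in scramble cells is given for orientation only, since their comparison with knockdown cells uses the same empty-vector libraries. Ccl2 stood at 51.6 ± 9.95 CPM in scramble cells, 0.328 ± 0.0979 CPM in knockdown cells and 34.0 ± 3.48 CPM with IKK2-SE (mean ± SD, n = 3 each). Nfkbia stood at 221 ± 5.76, 44.3 ± 0.0291 and 109.6 ± 0.990 CPM in the same order, and Tmem176b at 151 ± 3.55, 10.99 ± 0.0547 and 82.8 ± 4.15 CPM. With IKK2-SE these 3 genes remained below their scramble level. Lcn2 stood at 7.98 ± 0.199, 3.22 ± 0.715 and 273 ± 32.1 CPM, Nos2 at 7.56 ± 1.58, 6.21 ± 2.15 and 43.6 ± 4.72 CPM, and C3 at 80.3 ± 4.72, 95.6 ± 6.21 and 272 ± 19.5 CPM. With IKK2-SE these lay above the scramble level. Csf1 stood at 398 ± 13.2, 399.8 ± 14.0 and 614 ± 0.763 CPM. Vim stood at 2767 ± 233, 3811 ± 211 and 2694 ± 118 CPM, and Hspb7 at 0.0534 ± 0.0472, 24.8 ± 0.751 and 6.89 ± 1.40 CPM. Cnfn stood at 0.0717 ± 0.0539, 4.60 ± 0.359 and 0.975 ± 0.276 CPM.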

How the data were processed

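The authors deposited 1 table of read counts per gene (whole numbers, not normalised) for 9 libraries. FastQC, MultiQC and STAR with the mm10 build are named in the submitters' processing notes; the aligner's version, the read counter and the strand are each not given in the sources used here. Column names that say KD3 where the titles say KD2 were matched on arm and replicate number. RNA came from a column kit and libraries from a NuGEN messenger RNA kit, per the labels' protocols.

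The counts were scaled by TMM factors and filtered (filterByExpr, minimum count 10, minimum total 15). edgeR 4.0.16 in R 4.3.3 fitted a robust quasi-likelihood model over all 9 libraries, with 6 residual degrees of freedom, and p-values were adjusted by Benjamini-Hochberg over all 16766 tested genes. The code was tested on simulated data first. Values after ± are standard errors of log2 fold changes, or SD where stated (n = 3). Intervals and floors cover counting error only. Positions are those of GRCm38/mm10 by symbol, found for 97.1% of tested genes, and promoters are from RefSeq GRCm38.p6. The kB consensus is used in its common degenerate form.

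Genes were named by a rule: fixed pathway genes, the 20 largest rises and falls (mean log2 CPM of at least 1), the 10 largest gains, losses and smallest adjusted p in each direction, up to 5 called members of each list, and any member without counts in 1 arm. The comparison, the lists and the rule were chosen with earlier results of these data known. Alternatives used library totals, RLE factors, no filter, a CPM filter, DESeq2 1.42.0, limma 3.58.1 voom, no robust spread, a replicate block, only the 6 libraries, and each library left out. A few genes that the rule names are not reported here.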

Additional observations from a re-analysis of the deposited data

How the results depend on the processing

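No called result changed direction in the 18 alternatives, and 192 of the 213 named genes that passed the test passed it in all of them. Between 64.3% and 99.7% of the 1749 calls were shared with an alternative, 0 with the opposite sign. Leaving out 1 library gave 1168 to 1800 calls, 676 to 975 higher and 492 to 825 lower. Changes of at least 2-fold then numbered 198 to 237 higher and 37 to 50 lower. With only the 6 libraries compared, and so no scramble libraries in the spread, 1448 genes were called, 806 higher and 642 lower. These held 80.8% of the 1749 calls. The lowest count of falls, 492, came without empty-vector replicate 2, and 505 came without IKK2-SE replicate 3. With no filter on low counts 81 genes were at least 2-fold lower, and with the filter on CPM 134 were at least 2-fold higher and 18 lower, since fewer low genes were tested. A replicate block gave 2678 calls, 1304 higher and 1374 lower, so that falls outnumbered rises. Same-numbered libraries correlated by 0.123, 0.004 and 0.025 in their deviations over all tested genes, and other pairs by -0.081 to 0.046. The labels do not say whether equal numbers pair the samples, and these low correlations cannot decide it. Over 14 genes that track RNA quality, replicate 1 had the lowest median deviation in both arms, -0.22 in each. Replicates 2 and 3 stood at 0.04 and 0.20 with the empty vector and at 0.17 and 0.06 with IKK2-SE. The share of mitochondrial transcripts was also lowest in replicate 1 of both arms, at 0.939% and 1.036%. A replicate effect shared by the arms was not tested. Ikbkb passed with library totals (adjusted p = 0.0362), the replicate block (0.0243) and without scramble replicate 3 (0.0489), and otherwise reached up to 0.197. Depth limits the genes with few counts, whose ratios carry wide intervals.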

Other observations

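Some of the largest moves lay outside the lists. Igfbp4, a binding protein of insulin-like growth factors, went from 288 to 479 CPM (means of 3 libraries), a rise by 0.73 ± 0.04 on the log2 scale. Anxa2, a membrane-binding annexin, went from 1091 to 820.4 CPM, a fall by 0.41 ± 0.05, and Bsg (basigin), a partner of lactate transporters, fell by 0.23 ± 0.04 on the log2 scale. Angptl2, a secreted relative of Angptl7, went from 94.5 to 65.0 CPM, a fall by 0.54 ± 0.04, while Angptl7 rose. Suox, the sulfite oxidase, fell by 0.64 ± 0.05 and Lrrn4cl by 0.68 ± 0.06. Stfa3, of the stefin family of cathepsin inhibitors, had no counts in the empty-vector libraries and 363 with IKK2-SE, at least 131-fold higher with a group floor of 3 counts, and was named after its counts were seen. Among 24 tested Wnt and Notch genes the stem cell receptor Lgr6 rose from 0.276 to 0.775 CPM, and Wnt7b and the Notch target Hey2 fell by 0.31 ± 0.05 and 0.47 ± 0.10.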
